A study of Mus musculus with 15 samples.

Results

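In hepatocyte chromatin of mice, 2559 autosomal regions were open at postnatal day 14 (P14) and at 2 months in the wild type but closed at P14 when Ezh1 and Ezh2 were lost. They were defined by calls in 3 genome maps, 1 for each group of mice. Each map divides the mm9 genome into domains of the classes euch (called open here), int (intermediate) and het (called closed here). A bin of 2 kb was selected by 3 calls: open in the P14 wild type, closed in the P14 knockout and open in the 2-month wild type. Adjacent bins were joined and runs of at least 6 kb were kept. The 2559 regions made up 2.20% of the 116339 autosomal runs of that length that carry any one set of 3 calls. They cover 20.5 Mb, or 1.94% of the 1056 Mb open in the P14 wild type. Because the calls of all 3 maps chose the regions, those calls are a description and not a finding.

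EZH1 and EZH2 are the alternative catalytic subunits of PRC2, the Polycomb complex that methylates lysine residues of histone H3 and keeps developmental genes silent. EZH2 predominates in dividing cells, and EZH1 is better known from resting ones. The liver is still growing in the weeks after birth, while hepatocytes take on their adult set of metabolic genes. Loss of a silencing complex is usually discussed for the chromatin that opens without it. The regions here show the opposite call. The assay, srHC-seq, separates long from short fragments of sonicated, crosslinked chromatin, so that compact chromatin, which resists sonication, can be told from open chromatin.

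The P14 wild type, labelled Wt, had 3 male and 2 female samples. The knockout, also at P14, had the genotype Alb-Cre;Ezh1-/-;Ezh2f/f, with 2 male and 3 female samples. In it the Cre recombinase under the albumin promoter deletes Ezh2 in hepatocytes, whereas the Ezh1 null allele is not restricted to them. The labels do not say whether the wild-type mice carried Cre or floxed alleles. The 2-month wild type had 2 male and 3 female samples. Hepatocytes were isolated by liver perfusion and low-speed centrifugation, and the cell type could not be checked against marker genes because the maps hold no expression values.

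Each map was read as a pool of its group's 5 samples, and no read depth or signal lies behind the calls in the files. With 1 map a group there is no replicate error, so no difference was tested and every value describes these 3 maps. The sex mix, any batch and the depth of a pool cannot be told apart from its group. The closed class covered 45.4% of autosomal bins in the P14 wild type, 46.0% in the knockout and 46.2% at 2 months, and the open class covered 42.7%, 42.4% and 43.0%.

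Open bins that were closed in the knockout were in most cases closed at 2 months as well. Of 528200 autosomal bins open in the P14 wild type, 12.8% were closed in the knockout. At 2 months 61.4% of those bins were closed too, 13.0% were int and 25.6% were open. The last share, 17268 bins or 34.5 Mb, carries the calls of the regions, and 59.4% of it lay in runs long enough to be kept. Set against all 408505 bins that were open in both wild-type maps, 4.23% were closed in the knockout, 4.51% were int and 91.3% were open. The bins closed both in the knockout and at 2 months were open in the P14 wild type alone, so any errors of that map count among them. In the same way, the bins of the regions were closed in the knockout alone. Any errors of the knockout map therefore count among the regions.

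Each of the other maps also stood alone against the remaining pair. Among bins open in both P14 maps, 6.98% were closed at 2 months. Among bins open in the knockout and at 2 months, 7.16% were closed in the P14 wild type. Of these ways for one map to be closed alone, the knockout gave the smallest share. The reverse of the rule, bins closed in both wild-type maps and open in the knockout, applied to 5.02% of 436412 bins.

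The regions were short. Their lengths ran from 6 to 30 kb with a median of 8 kb and a mean of 8.01 kb. Exactly 6 kb was the length of 1241 regions (48.5%), 672 were of 10 kb or more (26.3%) and 19 were of 20 kb or more. Just outside the threshold lay 1795 runs of 4 kb, and 3425 single bins carried the same calls. Runs of 4 kb had a median host domain of 18 kb in the P14 wild type and those of 6 kb one of 24 kb. Among regions closed both in the knockout and at 2 months, 37.0% reached 10 kb, and among those closed at 2 months only, 35.2% did. For regions open only in the knockout the share was 27.0%. Of these 4 sets, those in which the knockout stood alone held the smaller shares of long regions, in either direction.

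**Figure D1:**
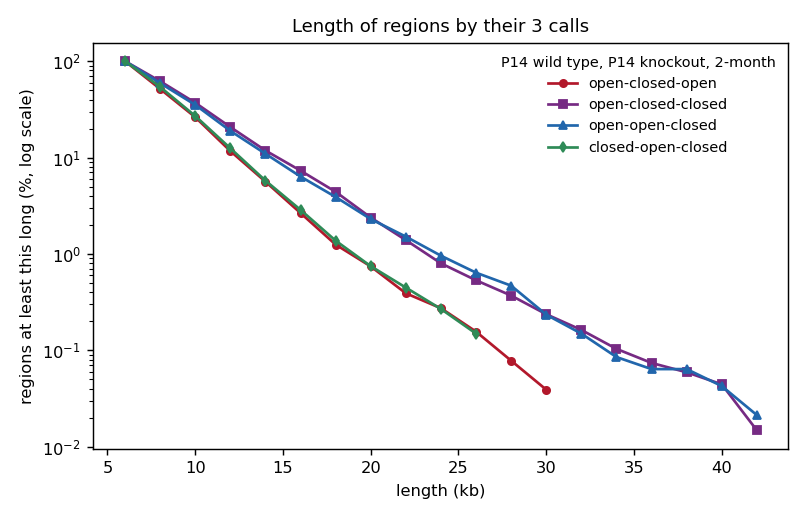
Percentage of regions (log scale) that were at least as long as the length on the x axis (kb), for 4 sets named by their calls in the P14 wild type, the P14 knockout and the 2-month wild type. Both sets in which the knockout stood alone, open-closed-open and closed-open-closed, fall off together and end at 30 and 26 kb, while the other sets reach 42 kb.

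Most regions took a piece out of a longer open domain. The host, the open domain of the P14 wild type that holds a region, had a median length of 26 kb, with 25% of hosts at or below 14 kb and 25% at or above 60 kb. The region lay inside its host, touching neither edge, in 1210 cases (47.3%). It lay at 1 edge in 1061 (41.5%) and filled the whole host in 288 (11.3%). Among 6755 regions closed both in the knockout and at 2 months, 13.6% lay inside their host and 41.7% filled it, and their hosts had a median of 14 kb. Closing shared by both maps thus took small open domains whole more often than closing in the knockout alone did. Regions closed at 2 months only were near the latter, with 40.9% inside, 13.6% filling the host and a median host of 20 kb. Regions open only in the knockout lay in P14 wild-type closed domains with a median of 28 kb, 48.7% inside and 9.85% filling them. These positions were thus not particular to closing in the knockout.

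Some hosts were left in pieces in the knockout. For 781 of the 1210 regions inside a host (64.5%), or 30.5% of all 2559, the knockout was still open somewhere in the host on both sides of the region. The shares of the host count the region itself, which is closed in the knockout and open at 2 months by the rule. Over all regions, a median of 37.5% of the host was closed in the knockout and 50.0% was open. In 706 cases (27.6%) the host held no open bin at all in the knockout, and in 468 (18.3%) every bin of it was closed. Both counts include the 288 regions that filled their host, where the rule sets the outcome. At 2 months 1438 hosts, counted once per region, were open over their full length (56.2%). This count too includes the 288 by the rule. No share over all open domains of the P14 wild type is set beside it, so it is not a trait of these hosts. The regions fell in 2457 different open domains of the P14 wild type, 6.06% of 40522, and 95 of those domains held more than 1.

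The closed domains of the knockout that cover the regions were of 3 kinds. Each kind is defined by calls next to the region, which partly sets the region's position and the length of its host. In 889 cases (34.7%) the closed domain had exactly the bins of the region, a closed island. Such islands lay in long hosts, with a median of 58 kb, and 92.8% of them lay inside the host. In 1185 cases (46.3%) the closed domain reached bins that were already closed in the P14 wild type, so that wild-type closed chromatin and the region formed 1 domain. Here hosts were short, with a median of 16 kb, 14.9% of regions lay inside, and the closed domain had a median of 28 kb. In the other 485 cases (19.0%) the closed domain was longer than the region but reached no bin closed in the wild type. Longer regions were more often islands, 43.8% at 14 kb or more and 28.6% at 6 kb. The covering domains were small throughout, with a median of 14 kb, and 1618 of 2559 were under 20 kb, although 38 were of 200 kb or more.

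At 2 months the same places lay in longer open domains. The 2-month open domain that covers a region had a median of 48 kb, against 26 kb for the host at P14, and was longer than the host in 1671 cases (65.3%), equal in 140 and shorter in 748. It spanned at least 2 separate open domains of the P14 wild type in 1188 cases (46.4%). A measure of at least 100 kb applied to 842 of these 2-month domains and to 351 hosts at P14. Over all autosomes, open chromatin was in fewer domains at 2 months, 25999 against 40522 at P14, for a similar share of bins.

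The difference between both P14 maps narrowed to about 1 percentage point at 9 kb from a region and stayed small beyond. The 2-month map stayed apart from them. The bin that adjoins a region cannot carry the region's own 3 calls, because adjacent bins were joined. Its calls are thus partly set by the rule. In that bin the knockout was closed on 42.2% of 5118 sides, int on 20.3% and open on 37.5%. The P14 wild type was closed there on 17.2% of sides and open on 68.0%. By the fifth bin out, 9 kb from the edge at its middle, 35.3% of bins were closed in the knockout and 34.5% in the P14 wild type. The gap then varied: at 17 kb 37.4% were closed in the knockout and 34.9% in the P14 wild type, and at 73 kb 38.8% and 36.7%. From 50 to 100 kb away the shares were 38.2% and 37.7%. The 2-month map was closed in 25.5% of bins at 9 kb and in 32.4% from 50 to 100 kb away, and open there in 57.6% against 52.5% in the P14 wild type. The most frequent calls of the adjoining bin were open in all 3 maps (1834 sides, 35.8%), followed by int in the knockout between open calls (904 sides, 17.7%). Where regions closed both in the knockout and at 2 months, the surroundings differed widely: 65.5% of bins from 50 to 100 kb away were closed in the knockout against 52.9% in the P14 wild type.

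**Figure D2:**
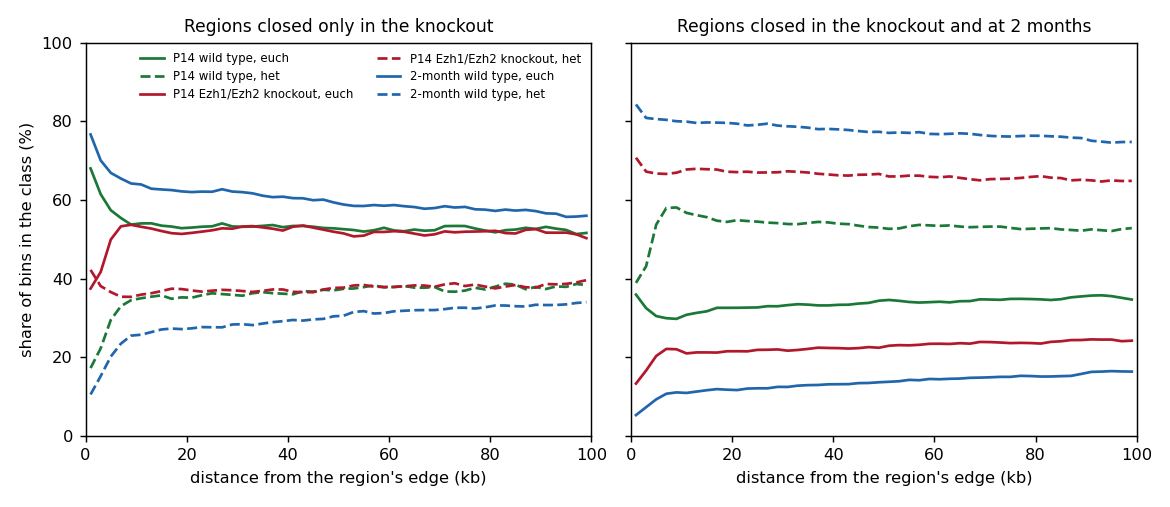
Share of 2 kb bins (%) called euch (solid lines) or het (dashed lines) against the distance from a region's edge (kb), both sides together, in each of the 3 maps. On the left, around the 2559 regions closed only in the knockout, the P14 wild-type and knockout lines come close within 10 kb. The 2-month lines stay apart from them. On the right, around the 6755 regions closed in the knockout and at 2 months, the lines of the 3 maps stay apart up to 100 kb.

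The wider surroundings were scored for openness, the share of bins open minus the share closed in 100 kb on either side without the region, from -1 to 1. Around the regions the median score was 0.20 in the P14 wild type, 0.18 in the knockout and 0.41 at 2 months. Bins open in both wild-type maps had medians of 0.54, 0.62 and 0.75 in the same order, so the regions lay in less open parts of the genome than such bins did. The knockout score was lower than the P14 wild-type score around 1373 regions (53.7%), higher around 1136 and equal around 50, with a median difference of -0.02. Of the reference bins, 34.0% had a lower score in the knockout, and the median difference was 0.05. This comparison is not like for like. The regions are closed in the knockout by the rule, 91.3% of the reference bins are open in it, and only the bin itself was left out of a reference bin's surroundings. At 2 months the score was above that of the P14 wild type around 1781 regions (69.6%), with a median difference of 0.16, and for 74.4% of the reference bins. Both differences use the P14 wild-type map and so share its errors. The surroundings of a region can hold others, which are closed in the knockout by the rule. With the bins of all regions left out, the knockout score was lower around 1185 regions (46.3%) and higher around 1317, and the median difference was 0.0103 and so had the opposite sign. Bins closed in the P14 wild type and open in the knockout were kept. Leaving out the regions, here and below, can thus only raise the knockout score relative to that of the P14 wild type. The sign depends on which bins are counted. Around regions closed both in the knockout and at 2 months, the median difference was -0.24 in the knockout and -0.45 at 2 months, with other regions of that set kept in.

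Surroundings were also scored by the kind of closed domain, again with other regions kept in. Kind and position are defined by calls next to the region, which the score counts. The order of these scores is therefore partly set by definition and is a description. Around closed islands the median score was 0.44 in the P14 wild type, 0.47 in the knockout and 0.67 at 2 months. Around regions whose closed domain reached wild-type closed bins it was -0.04, -0.11 and 0.15. Regions that filled their host had -0.16, -0.16 and 0.20. The regions therefore include islands in mostly open chromatin as well as small open domains whose surroundings were mixed at P14.

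The share of open bins that closed in the knockout fell steeply with the length of the open domain. The base of this share is all bins open in both wild-type maps, and the bins counted carry the calls of the rule, so it too is a description. In P14 wild-type domains under 10 kb it was 13.8% (2392 of 17277 bins). It was 10.5% in domains from 10 to under 20 kb, 5.996% up to 50 kb, 2.70% up to 100 kb, 1.58% up to 200 kb and 0.904% in longer ones (564 of 62423 bins). By distance, 13.1% of bins at a domain's edge were closed in the knockout, 5.04% of those 4 to 8 kb from it and 0.570% of those at 50 kb or more. Within domains of 100 kb or more the shares at the edge, at 4 to 8 kb and at 50 kb or more were 8.79%, 2.42% and 0.570%, so the share fell with distance from the edge within long domains as well.

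Open chromatin among closed neighbours closed more often. Where the 100 kb on either side of the P14 wild-type domain scored under -0.5, 7.53% of bins were closed in the knockout, against 2.39% where they scored 0.5 or more. For domains from 20 to under 50 kb alone the shares were 8.24% and 4.18%. The mirror image behaved alike by length: closed bins opened in the knockout in 15.1% of cases in domains under 10 kb and in 0.897% in domains of 200 kb or more. With openness around it the order was turned, from 2.05% under -0.5 to 11.99% at 0.5 or more. In both directions the share that changed call was thus higher the more the neighbourhood was of the other class. How far a call near a domain edge depends on the calling was not tested.

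**Figure D3:**
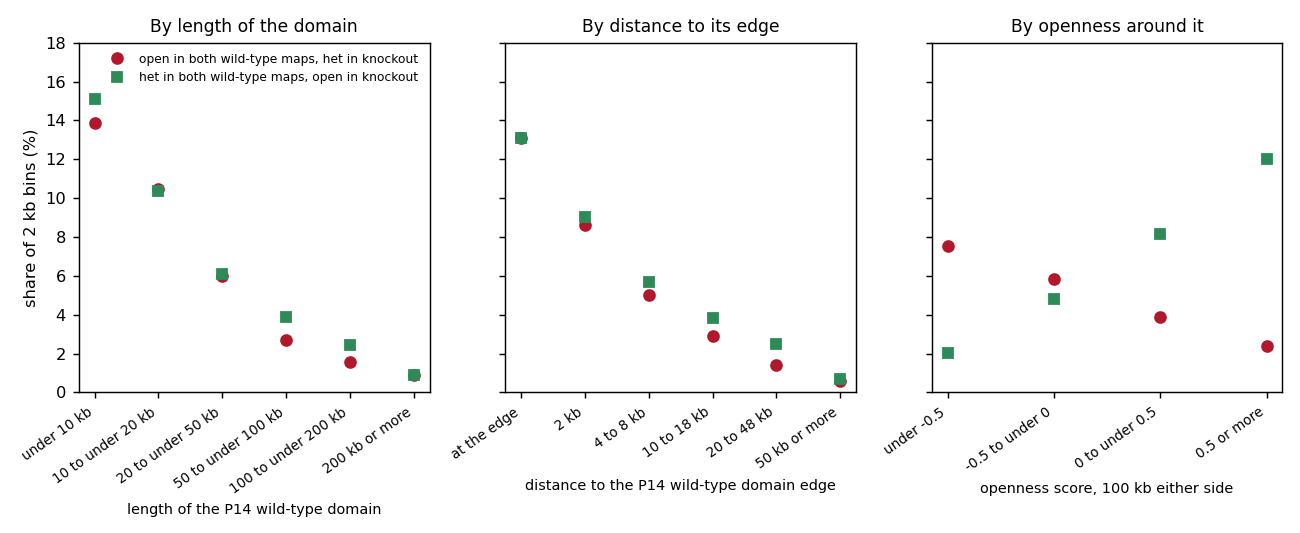
Share of 2 kb bins (%) with a different call in the knockout, by the length of the P14 wild-type domain, by the distance to its edge and by the openness score of the 100 kb around it. Red circles are bins open in both wild-type maps and closed in the knockout, and green squares are bins closed in both and open in the knockout. The shares fall from 13.8% to 0.904% and from 15.1% to 0.897% with length, and run in opposite directions with openness.

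The 20 longest regions lay on 12 autosomes and ran from 18 to 30 kb. The longest, 30 kb on chromosome 12 (106860001-106890000), lay at the edge of a P14 open domain of 80 kb and was part of a knockout closed domain of 224 kb, of which 84.8% was closed in the P14 wild type. This region is a case of a long closed domain that reached further into its open neighbour. The second, 28 kb on chromosome 11 (111160001-111188000), was a closed island with exactly its own bins, inside an open domain of 44 kb at P14 that was part of 112 kb of open chromatin at 2 months. Its surroundings, with other regions kept in, scored 0.09 in the P14 wild type, -0.32 in the knockout and 0.57 at 2 months. On chromosome 2 (159512001-159538000) a P14 open domain of 28 kb lay wholly in a knockout closed domain of 104 kb, and 26 kb of it make up the region. The surroundings there scored 0.10, -0.53 and 0.37 in the P14 wild type, the knockout and at 2 months. They include the rest of the closed domain of 104 kb and another region 6 kb away. The low knockout score is thus partly set by the choice of the region. On chromosome 14 (48842001-48868000) another 26 kb lay inside an open domain of 84 kb that belonged to 232 kb of open chromatin at 2 months.

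Others of the 20 were islands in hosts of 70 kb or more. On chromosome 4 (126124001-126144000) a closed island of 20 kb lay inside an open domain of 114 kb, with surroundings at 0.77, 0.95 and 0.88. The bins on either side of it were open in all 3 maps. On chromosome 1 (187084001-187108000) an island of 24 kb lay inside an open domain of 100 kb. Its scores were 0.28, 0.36 and 0.68, with another region 8 kb away kept in. On chromosome 7 (30908001-30928000) an island of 20 kb lay inside 70 kb, with 0.43, 0.40 and 0.74. Another, of 20 kb on chromosome 4 (32782001-32802000), lay at the edge of 110 kb, and its surroundings, with other regions kept in, scored 0.34, 0.17 and 0.90. In these 4 islands the knockout score thus lay on either side of that of the P14 wild type. Over all 20 regions it was the lower in 16, with other regions kept in the surroundings.

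A further group were small open domains that were lost whole in the knockout. On chromosome 16 (71622001-71646000) all 24 kb of a P14 open domain lay in a closed domain of 56 kb, and at 2 months in 132 kb of open chromatin. On chromosome 5 (64420001-64442000) all 22 kb did so in a closed domain of 40 kb, and at 88510001-88530000 of the same chromosome all 20 kb in one of 36 kb. The latter stood in closed chromatin in every map, with scores of -0.57, -0.90 and -0.56. These count the rest of the closed domain of 36 kb and another region 82 kb away. The knockout score is thus partly set by the choice of the region. On chromosome 15, 22 kb at 4730001-4752000 were lost whole and 24 kb at 4504001-4528000 formed an island. Of all 20, 7 lay inside their host, 8 at an edge and 5 filled it, 6 were islands and 10 belonged to closed domains that reached wild-type closed bins. The 2-month open domain was longer than the host for 19 of them, the one on chromosome 1 (83770001-83788000) being the exception.

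**Figure D4:**
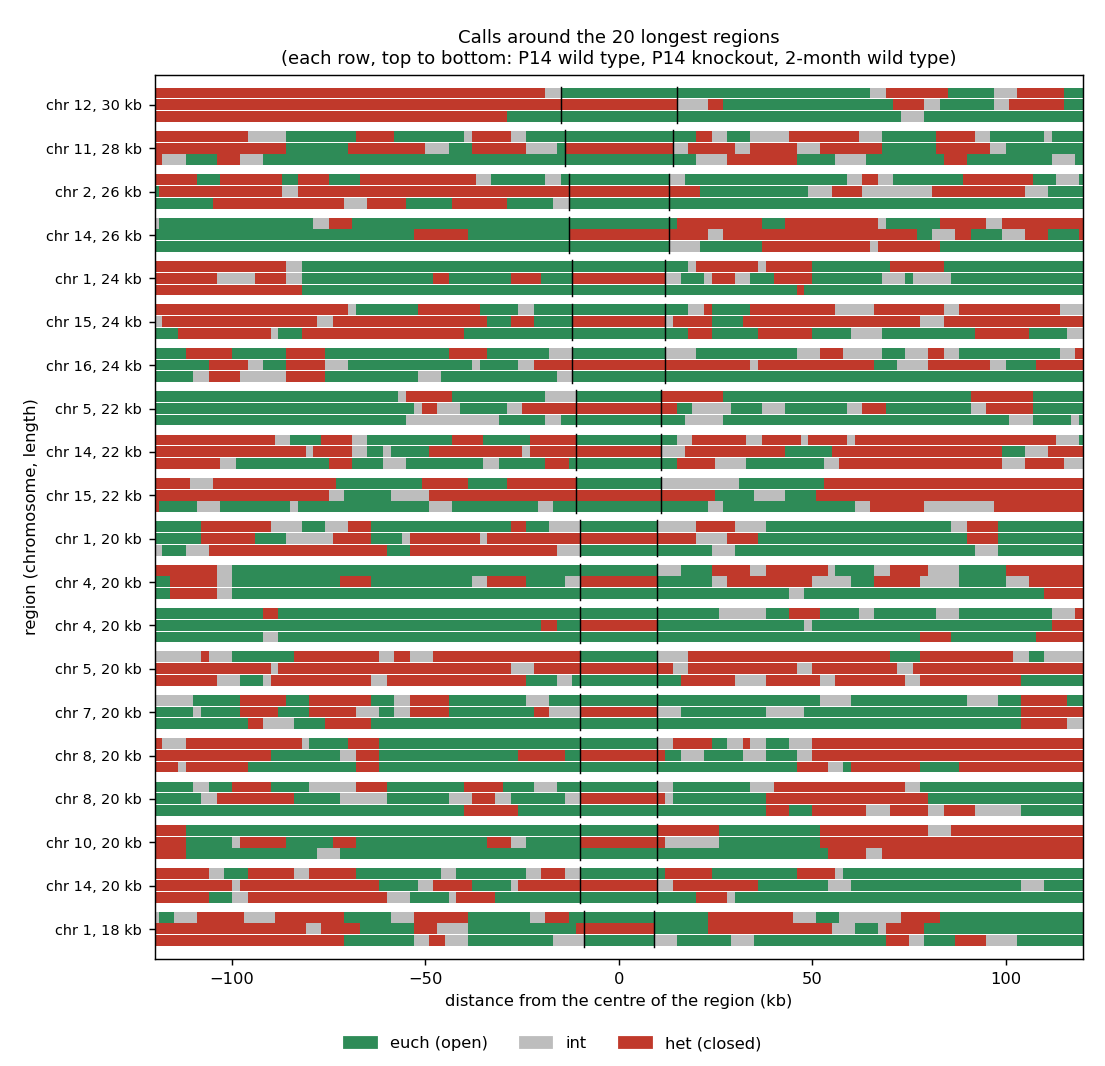
Calls from 120 kb on the left to 120 kb on the right of the centre of each of the 20 longest regions (x axis, kb), in 3 strips per region from top to bottom: P14 wild type, P14 knockout, 2-month wild type. Black lines mark the region, which is green (euch) in the first and last strip and red (het) in the middle one by the rule. Regions of 18 to 30 kb appear as islands, as ends of longer red domains or as whole green domains turned red.

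A few stretches held several regions. Of 2409 windows of 1 Mb with open bins in the P14 wild type, 993 held no region, 746 held 1, 290 held 3 or more and 52 held 5 or more. The distance to the nearest other region had a median of 206 kb, and 271 regions (10.6%) had another within 20 kb. Most region bases, 82 kb in 7 regions, lay on chromosome 16 from 71000001 to 72000000, where the rest of the window, without its regions, scored -0.18 in the P14 wild type, -0.34 in the knockout and -0.27 at 2 months. The first 5 of these regions, between 71622001 and 71748000, all lay in 1 open domain of 132 kb at 2 months, but at P14 in open domains of 24 or 26 kb. In the knockout 4 closed domains of 16 to 56 kb covered them. Around these 5, with the bins of all regions left out, the surroundings scored from 0.08 to 0.24 in the P14 wild type, from -0.27 to 0.01 in the knockout and from 0.62 to 0.80 at 2 months. Flanks of neighbouring regions overlap, so these are not 5 separate places.

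The other windows with most region bases were on chromosomes 10 and 14. On chromosome 14 from 114000001 to 115000000 there were 9 regions with 80 kb, the most regions of any window, and the rest of it scored 0.03, -0.03 and 0.35. On chromosome 10 from 81000001 to 82000000 there were 8 regions with 74 kb, and the rest scored -0.03, -0.16 and 0.16. Of these 8, 3 lay in a single P14 open domain of 122 kb. Further windows on chromosome 14, from 48000001 to 49000000 (5 regions, 66 kb) and from 28000001 to 29000000 (7 regions, 64 kb), were mostly open at 2 months outside the regions, with scores of 0.68 and 0.85. Outside the regions the knockout score was above the P14 wild-type score in both, 0.36 against 0.12 in the former and 0.53 against 0.50 in the latter, and below it in the other 3 windows.

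All 19 autosomes held regions, from 74 on chromosome 19 to 205 on chromosome 1. Per 10 Mb open in the P14 wild type there were 20.1 on chromosome 6 at the lowest and 31.0 on chromosome 12 at the highest, followed by 30.6 on chromosome 14. As a share of bins open in both wild-type maps, closing in the knockout ran from 3.51% on chromosome 6 to 5.50% on chromosome 14, around the 4.23% of all autosomes. In the first 10 Mb after position 3000000, where mapped sequence starts next to the centromere, the share was 5.57%, against 4.25% in the last 10 Mb and 4.11% between. The range between autosomes was under 2-fold for both measures.

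**Figure D5:**
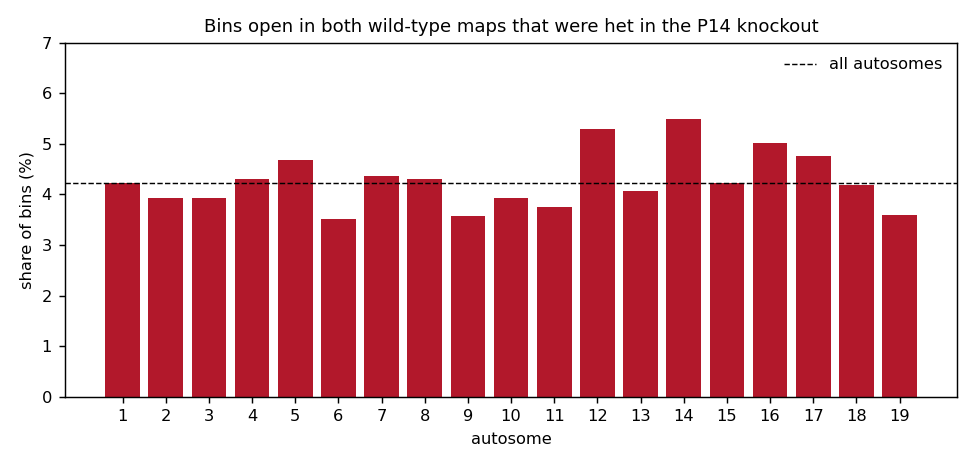
Share of 2 kb bins open in both wild-type maps that were closed in the P14 knockout (%), by autosome, with the value over all autosomes as a dashed line. The bars run from 3.51% on chromosome 6 to 5.50% on chromosome 14.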

How the data were processed

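srHC-seq maps of 15 hepatocyte samples in 3 groups of 5 were used. The authors deposited 9 lists of intervals whose only content is a class letter, O, N or C, with a score of 0 throughout. The submitters' processing notes name build mm9, the aligner STAR (2.4.2a), bedtools and bcl2fastq (2.19.0.316). The domain caller is not given in the sources used here. All but 1 sample, a 2-month female that does not name the euch list, name the 3 lists of their group. The lists tiled the autosomes without overlap on a grid of 2 kb (1236182 bins).

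Regions, host domains, flanks and openness scores were computed in pandas 2.3.3 and NumPy 2.4.6 under Python 3.11.15, intervals in SciPy 1.17.1, and figures drawn in Matplotlib 3.10.9. Finding of regions was checked on simulated data. Coordinates are 1-based. The regions named are the 20 longest, ties by position, and those of the 5 windows of 1 Mb with most region bases. The members and measures were chosen with earlier results of these data known. Genes and sequences were not analysed here, because the annotation at hand is of another build.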

Additional observations from a re-analysis of the deposited data

How the results depend on the processing

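No depth or margin lies behind the calls, so the limit is 1 pooled map a group. No paired analysis was possible because each list pools its group, and no replicate could be left out. Leaving out each autosome in turn left from 2354 to 2485 regions. No share or median moved beyond the 95% interval of its main value (exact binomial, or from order statistics for a median), which treats regions or bins as independent. Each such setting keeps most of the same regions, so little movement was possible. Of 7 other settings, 1 kept the share of P14 open bases within its interval. Chromosome X added 163 regions.

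At a minimum length of 4 kb there were 4354 regions on 2.62% of P14 open bases, 41.2% of them inside the host and 52.8% in knockout domains that reach wild-type closed bins. At 10 kb there were 672 regions, 7.89 Mb on 0.747% of bases, with 53.0% and 40.6%. With int also allowed at 2 months there were 3878 regions, 31.976 Mb on 3.03% of bases, with 41.5% and 51.2% and a median difference of the surroundings of -0.05. Without bins that adjoin a P14 domain edge the share of bases was 1.37%; all regions (100%) then lie inside by construction, and 33.9% were in domains that reach closed bins. Joining over 1 bin gave 2.00% of bases, and giving int domains of 2 kb the class of their neighbours gave 2.03%. The median difference of the surroundings was -0.04 within 50 kb and 0 within 500 kb. With the bins of other regions left out of the surroundings, chosen after seeing the data, it reversed to 0.0103, since those bins are closed in the knockout by the rule. Bins with the reverse calls were kept, so this setting can only raise the difference.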
